A study of Homo sapiens with 10 samples.

Results

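The genes described here are 39 genes of amino acid synthesis, amino acid transport and tRNA charging that are linked to the transcription factor ATF4. They were chosen by symbol from knowledge of the pathway and found by that symbol in the deposited count tables, where all 39 were present among 58676 genes. They and the other gene lists below were chosen with earlier results of these data known, so the shares called do not come from a blind choice. All 39 passed the filter on low counts, which left 16936 genes to test. The study sequenced RNA from HEK293T, a transformed line of human embryonic kidney cells, and its title concerns BRSK2 and BRSK1, kinases of the AMPK family, as negative regulators of the transcription factor NRF2. The groups were BRSK2 overexpressed for 24 h (3 libraries), BRSK1 overexpressed for 24 h (3 libraries), hcRED, a red fluorescent protein, overexpressed for 24 h (2 libraries), and Mock (2 libraries). All 4 groups share the cell line and its medium, which held serum, and no allele, promoter, clone or dose is given in the labels. Separate cultures are not stated for the libraries of a group, so every p-value here reflects the spread between these libraries alone, which may be technical.

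ATF4 is the main effector of the integrated stress response. Stress kinases phosphorylate the translation factor eIF2alpha, general protein synthesis falls, and translation of the ATF4 mRNA rises, so that ATF4 protein can change with little change in its own mRNA. ATF4 pairs with C/EBP proteins on short C/EBP-ATF response elements and is known to induce enzymes that make serine, glycine, asparagine and proline, carriers that import amino acids, and the synthetases that load amino acids onto tRNAs.

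The promoters shown here are those of genes that differed between a kinase and the controls and that hold the core letters of that element, TGATGNAA, within 250 bases before to 50 bases after an annotated start. Sequences are from RefSeq on GRCh38.p14 and read 5′ to 3′ on the gene's strand. Capitals mark the 8 letters of the match, which read TTNCATCA where the motif lies on the opposite strand. Positions count from 1 at the first transcribed base, with the base before it at -1. The motif began at -68 in ASNS, at 38 in SLC3A2, at -97 in SLC1A5, at -4 in SLC38A1 and at -13 in IARS. It lay on the opposite strand in SLC3A2 and IARS. All 5 windows belong to starts that lie inside the gene's span in the deposited tables. Those of SLC3A2, SLC1A5 and SLC38A1 lie away from the gene's 5′ end there, at 62856102, 46788594 and 46270017. ASNS, SLC3A2, SLC1A5 and SLC38A1 also have other windows, which lack the motif. Among these, chr11:62855859-62856158 for SLC3A2 and chr19:46788545-46788844 for SLC1A5 span the 5′ end.
ASNS, chr7:97872359-97872658, minus strand: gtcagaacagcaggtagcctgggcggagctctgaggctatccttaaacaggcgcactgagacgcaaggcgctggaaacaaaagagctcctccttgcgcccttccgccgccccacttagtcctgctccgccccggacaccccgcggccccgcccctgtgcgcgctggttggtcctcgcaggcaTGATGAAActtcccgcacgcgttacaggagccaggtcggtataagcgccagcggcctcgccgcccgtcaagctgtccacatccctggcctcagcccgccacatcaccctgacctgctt
SLC3A2, chr11:62881449-62881748, plus strand: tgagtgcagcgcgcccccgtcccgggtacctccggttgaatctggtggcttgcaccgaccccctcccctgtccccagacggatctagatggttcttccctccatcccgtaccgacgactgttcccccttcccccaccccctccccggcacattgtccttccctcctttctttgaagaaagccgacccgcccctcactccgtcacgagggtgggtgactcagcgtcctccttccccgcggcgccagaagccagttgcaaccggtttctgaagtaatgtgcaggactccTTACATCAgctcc
SLC1A5, chr19:46784765-46785064, minus strand: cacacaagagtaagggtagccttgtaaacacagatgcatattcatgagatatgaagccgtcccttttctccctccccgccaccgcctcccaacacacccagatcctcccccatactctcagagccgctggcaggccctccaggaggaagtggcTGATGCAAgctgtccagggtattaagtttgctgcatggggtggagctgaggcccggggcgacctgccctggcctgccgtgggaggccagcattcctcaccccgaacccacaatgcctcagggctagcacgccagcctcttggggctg
SLC38A1, chr12:46266467-46266766, minus strand: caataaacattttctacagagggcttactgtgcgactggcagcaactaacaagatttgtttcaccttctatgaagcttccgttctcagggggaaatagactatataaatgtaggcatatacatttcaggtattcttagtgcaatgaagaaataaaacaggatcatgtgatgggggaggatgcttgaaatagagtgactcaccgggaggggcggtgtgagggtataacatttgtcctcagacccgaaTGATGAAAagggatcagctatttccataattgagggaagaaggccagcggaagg
IARS, chr9:92293648-92293947, minus strand: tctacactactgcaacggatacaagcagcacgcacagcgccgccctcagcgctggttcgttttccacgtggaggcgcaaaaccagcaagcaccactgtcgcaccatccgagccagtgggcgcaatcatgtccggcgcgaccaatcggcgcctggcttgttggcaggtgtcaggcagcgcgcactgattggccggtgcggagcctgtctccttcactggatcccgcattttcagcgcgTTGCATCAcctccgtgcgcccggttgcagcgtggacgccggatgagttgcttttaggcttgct

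Of the 39 genes, 32 had at least 1 promoter window in the RefSeq table. The motif, searched on both strands, stood in a window of 16 of these 32 genes (50%), against 1217 of 27305 genes in the whole table (4.46%). Counted by window, it stood in 18 of 50 windows of these genes (36%), against 1270 of 35116 windows of the same length in all (3.62%). By role, 7 of 10 synthetases with a window held it, 5 of 8 amino acid carriers, and 0 of 3 genes of serine and glycine synthesis. The 3 matching windows of MTHFD1L overlap and hold 1 and the same site. Set beside the responses given below, it stood in 5 of the 11 genes called against the controls with either kinase (45.5%) and in 11 of the 21 that were not (52.4%). The 39 genes were chosen for their links to ATF4, so their share of the motif is not independent of that choice. The whole table was not limited to genes tested here. A match is only a match of letters, and no binding was measured here.

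**Figure D1:**
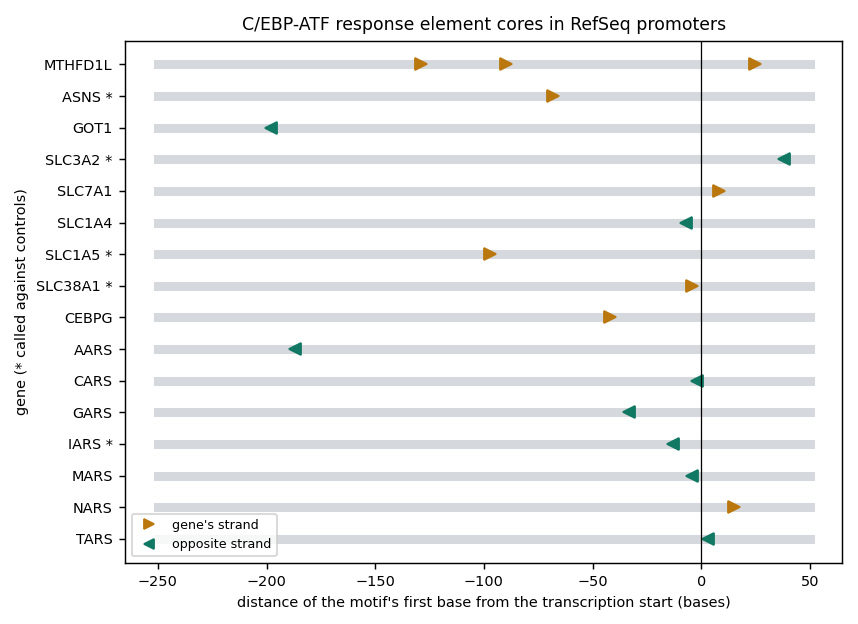
Position of each TGATGNAA match in the promoter windows, as the distance of its first base from the transcription start in bases, for the 16 genes that hold it. Triangles point right for the gene's strand and left for the opposite strand, grey bars span the 300-base window, and an asterisk marks the 5 genes called against controls. Matches lie between -198 and 38, and the 3 marks of MTHFD1L are 1 site seen from 3 starts.

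Total counts per library were between 16516116 and 24304302. The targeted genes matched the labels: BRSK2 stood at 69928 to 103640 CPM (counts scaled to the library total) in its 3 libraries, and BRSK1 at 47151 to 69608 CPM in the BRSK1 libraries. BRSK2 replicate 1 had the lowest BRSK2 level of its group and BRSK1 replicate 1 the lowest BRSK1 level of its group. Genes reported in HEK293 lines were detected in every library, with LIN28B at 91.8 to 129 CPM, NEFM at 127 to 186 CPM and PAX2 at 2.43 to 5.72 CPM, while the blood marker PTPRC had 0 counts and the liver marker ALB stayed at or under 0.282 CPM. Of the other markers of other cell types, COL1A1 (fibroblasts, 22.2 to 37.4 CPM), COL3A1 (fibroblasts, 1.017 to 3.03 CPM), CD14 (blood cells, 0.398 to 1.76 CPM), MYOD1 (muscle, 0.492 to 2.03 CPM) and ACTA1 (muscle, 0.656 to 2.29 CPM) were detected in every library. In bulk RNA, fewer cells expressing a gene and less RNA of it per cell cannot be told apart.

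All 39 genes were detected, over a wide range of levels. In TPM (CPM divided by the length of the longest annotated transcript and rescaled), PHGDH, the first enzyme of serine synthesis, had the highest mean over the 10 libraries at 400 TPM (356 to 452 TPM). The seryl-tRNA synthetase SARS followed at 385 TPM, the tyrosyl-tRNA synthetase YARS at 341 TPM and SLC3A2, the heavy chain shared by several amino acid exchangers, at 338 TPM. The ranges of these 4 genes over the libraries overlapped, so their order is not resolved beyond their spread. At the low end stood SLC6A9, a glycine carrier, at 16.5 TPM, ASNS, the asparagine synthetase, at 5.02 TPM, and NUPR1, a small stress-induced nuclear protein, at 0.627 TPM. The ranges of ASNS (3.67 to 7.13 TPM) and SLC6A9 (12.6 to 20.5 TPM) did not overlap, and NUPR1 (0.261 to 0.788 TPM) lay below both. The gap for NUPR1 depends on the length used, 5491 bases against 2356 for ASNS, and a shorter transcript would raise its level. Replicates agreed closely, with a coefficient of variation within groups of 2.36% for XPOT, the tRNA exporter, and 11.4% for ASNS, and the widest spread was 28.0% for NUPR1, which had 11 to 37 counts per library.

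**Figure D2:**
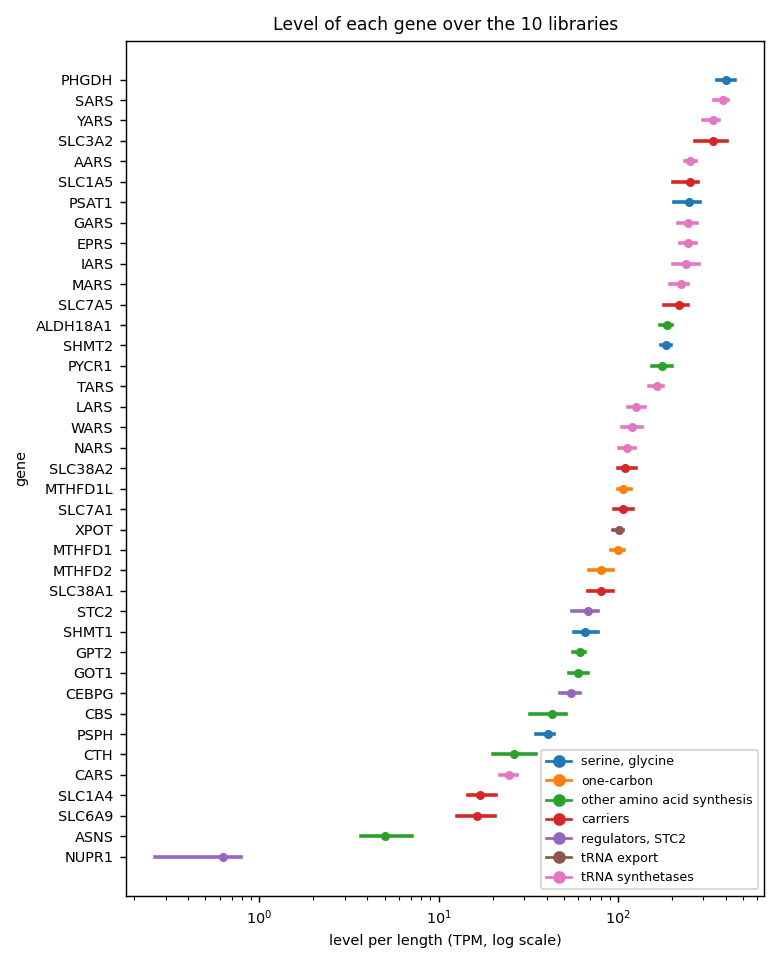
Level of each of the 39 genes in TPM on a log scale. Points are the mean over the 10 libraries and lines run from the lowest to the highest library, coloured by role. PHGDH is highest at 400 TPM, and ASNS (5.02 TPM) and NUPR1 (0.627 TPM) lie apart at the low end.

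With BRSK2, MTHFD2, SLC3A2 and ASNS rose and PSAT1 fell, 4 of 39 genes (10.3%), a share near the background of 7.82% of all tested genes called in that comparison (4.77% higher, 3.05% lower). The other 35 genes did not pass the test. Here and below, a gene is called when its adjusted p is under 0.05 in edgeR's quasi-likelihood test against the mean of both control groups (hcRED and Mock), adjusted by Benjamini-Hochberg over all 16936 genes. With BRSK1, 0 of 39 genes rose and 7 fell (17.9%), namely SLC6A9, SLC7A5, SLC1A5, STC2, SLC38A1, IARS and PHGDH, against 6.43% of all tested genes called (3.77% higher, 2.66% lower). The direction of the calls with BRSK2 depended on the tool. DESeq2 called 3 genes higher and 6 lower with BRSK2 (1433 of all tested genes called). With BRSK1 it called 1 higher and 9 lower (1221 of all tested genes). For limma-voom these were 2 higher and 1 lower with BRSK2 (1077), and 0 higher and 8 lower with BRSK1 (1049). The changes were small: the largest value called by edgeR was 0.57 on the log2 scale for ASNS with BRSK2, and -0.53 for SLC6A9 with BRSK1. Both comparisons use the same 4 control libraries, so they are not independent of each other.

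The median log2 fold change of the 39 genes was -0.07 with BRSK2 and -0.12 with BRSK1, and the median of all tested genes was 0.00 in both. With BRSK2, 14 of the 39 values were positive and 25 negative, and with BRSK1 8 were positive and 31 negative. The 3 BRSK2 libraries lay above all 4 controls for 2 of the 39 genes and below them for 10, where the shares over all tested genes were 9.09% and 8.2%. The 3 BRSK1 libraries lay above all 4 controls for 1 gene and below them for 13, where the shares over all tested genes were 9.93% and 8.43%. Under library totals alone, which shift the median of all genes with BRSK2 to -0.102, the calls with BRSK2 became 1 higher and 14 lower, and 0 higher and 11 lower with BRSK1. Over all 16936 tested genes the same setting called 3001 with BRSK2 and 1196 with BRSK1.

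**Figure D3:**
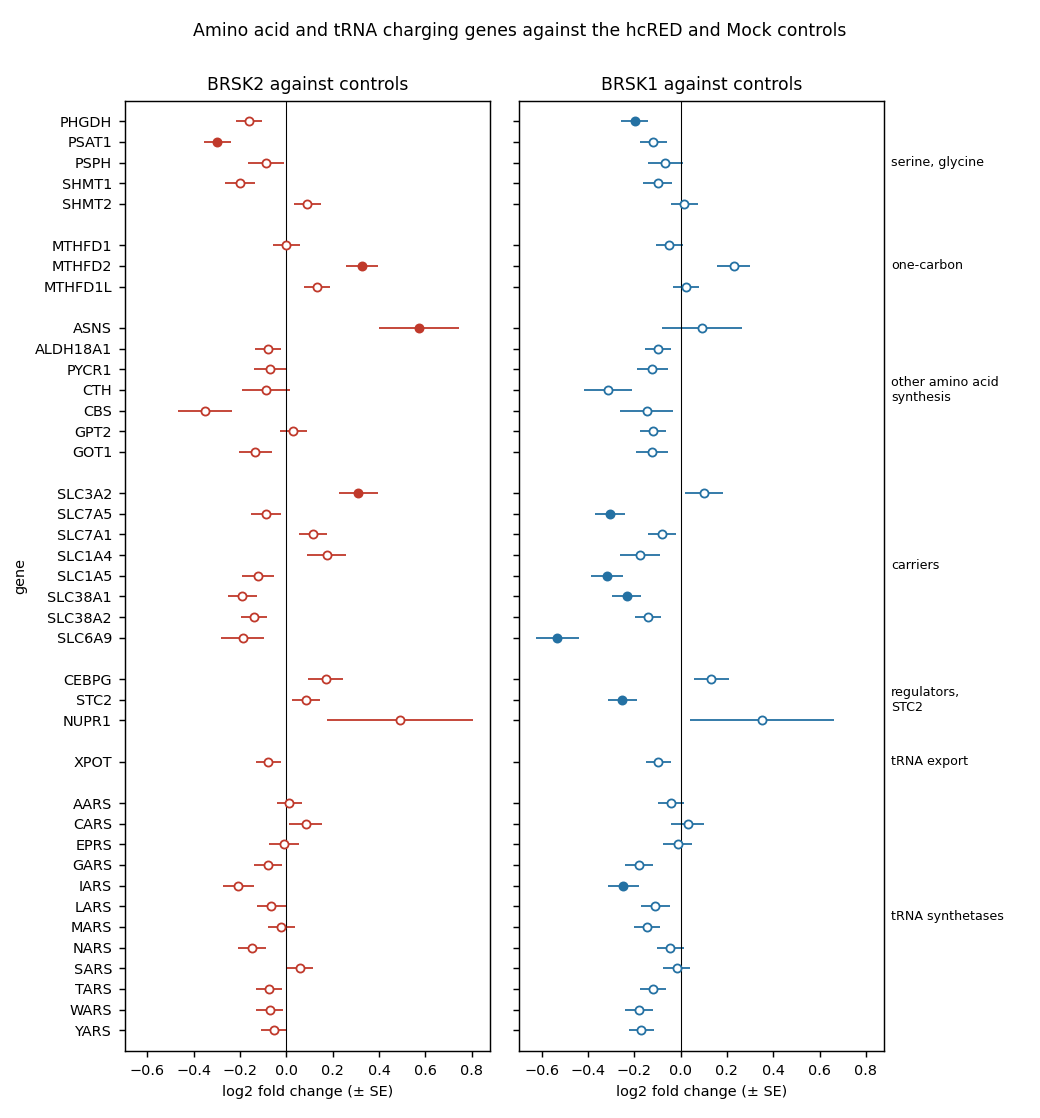
Log2 fold change of each of the 39 genes with BRSK2 (left) and BRSK1 (right) against the mean of both control groups, with bars of ± 1 standard error, grouped by role. Filled points are called. On the left 3 filled points lie above 0 and 1 below; on the right all 7 lie below.

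Serine is made from a glycolytic intermediate by PHGDH, PSAT1 and PSPH, and the hydroxymethyltransferases SHMT1 in the cytosol and SHMT2 in mitochondria turn it into glycine. Levels from here on are CPM on library sizes scaled by the trimmed mean of M-values (TMM). PSAT1, the aminotransferase of the middle step, was at 184, 182 and 172 CPM in BRSK2 libraries and 219, 199 and 191 CPM in BRSK1 libraries, against 221 and 228 CPM in hcRED and 216 and 218 CPM in Mock libraries. All 3 BRSK2 libraries were below every other library, whereas the BRSK1 libraries overlapped the controls. PSAT1 fell by 18.7% with BRSK2 (log2 fold change -0.30 ± 0.06 SE, adjusted p = 0.00249), a call kept in all 23 alternative settings, and was -0.12 ± 0.06 with BRSK1 (adjusted p = 0.235).

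PHGDH was at 478, 455 and 439 CPM in BRSK2 libraries and 469, 424 and 444 CPM in BRSK1 libraries, against 519.7 and 521 CPM in hcRED and 498 and 509 CPM in Mock libraries. All 6 kinase libraries were below all 4 controls, and the BRSK2 and BRSK1 libraries overlapped. PHGDH fell by 12.9% with BRSK1 (-0.20 ± 0.06, adjusted p = 0.0387), and its value with BRSK2 was -0.16 ± 0.06 (adjusted p = 0.0841). The BRSK2 value passed in 4 of 23 settings, DESeq2 among them. The BRSK1 call was lost without BRSK1 replicate 2 (adjusted p = 0.171) or 3 (0.155), without hcRED replicate 1 (0.115) or 3 (0.0951), and without Mock replicate 2 (0.0578) or 3 (0.0947). It passed against neither control group by itself (adjusted p = 0.118 against hcRED alone and 0.122 against Mock alone). The other 3 genes of the group were not called with either kinase, with values between -0.20 for SHMT1 and 0.09 for SHMT2 with BRSK2. SHMT1 with BRSK2 passed in 3 of 23 settings, DESeq2 among them. SHMT1 overlaps SMCR8 on the opposite strand, which had 1289 to 2128 counts per library beside 948 to 1619 for SHMT1, and without the strand setting of the counting their reads cannot be told apart.

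The folate enzymes carry the one-carbon units that serine releases. MTHFD2, the mitochondrial methylenetetrahydrofolate dehydrogenase, was at 131, 158 and 159 CPM in BRSK2 libraries and 136, 155 and 129 CPM in BRSK1 libraries, against 123 and 118 CPM in hcRED and 121 and 116 CPM in Mock libraries. Every kinase library was above all 4 controls. MTHFD2 rose by 25.3% with BRSK2 (0.33 ± 0.07, adjusted p = 0.00582) and was 0.23 ± 0.07 with BRSK1, which missed the threshold (adjusted p = 0.0511). The BRSK2 call was lost in 1 of 23 settings, without BRSK2 replicate 3 (adjusted p = 0.0735), and the BRSK1 value passed in 7 of 23 settings.

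MTHFD1L, the mitochondrial enzyme that releases formate, was at 161, 145 and 149.7 CPM in BRSK2 libraries and 140.1, 144 and 139 CPM in BRSK1 libraries, against 136 and 130.01 CPM in hcRED and 142 and 147 CPM in Mock libraries. The groups overlapped, and its values were 0.13 ± 0.06 with BRSK2 (adjusted p = 0.159), beside 0.02 ± 0.06 with BRSK1 (adjusted p = 0.852). MTHFD1, the cytosolic enzyme of the same pathway, was at 0.00 ± 0.06 with BRSK2 and -0.05 ± 0.06 with BRSK1.

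ASNS, which makes asparagine from aspartate and glutamine, was at 4.65, 5.95 and 6.42 CPM in BRSK2 libraries and 4.12, 4.11 and 3.94 CPM in BRSK1 libraries, against 3.81 and 3.13 CPM in hcRED and 3.93 and 4.40 CPM in Mock libraries. All 3 BRSK2 libraries lay above all other libraries, with replicate 1 nearest to them, and the BRSK1 libraries lay among the controls. ASNS rose 1.49-fold with BRSK2 (0.57 ± 0.17, adjusted p = 0.0414) and was 0.09 ± 0.17 with BRSK1 (adjusted p = 0.811). Its depth was low, at 64 to 121 counts per library, and the BRSK2 call held in 11 of 23 settings. It was lost without BRSK2 replicate 2 (adjusted p = 0.148) or 3 (0.22), without hcRED replicate 1 or 3, and without Mock replicate 2 or 3. It was also lost with limma-voom, under library totals alone and with only the groups compared. Against hcRED alone, against Mock alone and at a threshold of 0.01 it did not hold either. The pseudogene ASNSP1 had 19 to 68 counts per library and a transcript on the same strand, AC079781.5, had 0 to 12, so reads shared with them could move this value.

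In the rest of the synthesis group, ALDH18A1, which opens proline synthesis, was at 246, 222 and 226 CPM in BRSK2 libraries and 239, 229 and 218 CPM in BRSK1 libraries, against 232 and 236 CPM in hcRED and 257 and 255 CPM in Mock libraries. The groups overlapped, and neither value passed the test (-0.08 ± 0.06 with BRSK2 and -0.10 ± 0.06 with BRSK1). PYCR1, the last enzyme of proline synthesis, GPT2, the mitochondrial alanine aminotransferase, and GOT1, the cytosolic aspartate aminotransferase, were not called with either kinase, with values between -0.13 and 0.03. Of the transsulfuration enzymes that lead to cysteine, CBS was -0.35 ± 0.12 with BRSK2 (adjusted p = 0.0798) and -0.15 ± 0.11 with BRSK1, and CTH was -0.09 ± 0.10 with BRSK2 and -0.31 ± 0.10 with BRSK1 (adjusted p = 0.0685). CBS with BRSK2 passed in 7 of 23 settings and CTH with BRSK1 in 5 of 23.

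Among the 8 amino acid carriers, BRSK1 gave 4 calls (50%), all lower, against 6.43% of all tested genes called. BRSK2 gave 1, higher (12.5%), against 7.82% of all tested genes called. The median log2 fold change of the carriers was -0.10 with BRSK2 and -0.20 with BRSK1, and the count with BRSK1 was 4 lower under each of the 4 scalings. With BRSK2 the carriers had 0 higher and 4 lower calls and a median of -0.21 under library totals alone. That setting called 3001 of all 16936 tested genes with BRSK2 and 1196 with BRSK1. Summed over the 8 genes, the level was 1835, 1731 and 1741 CPM in BRSK2 libraries and 1609.7, 1585 and 1541 CPM in BRSK1 libraries, against 1701 and 1797 CPM in hcRED and 1788 and 1849.9 CPM in Mock libraries. All 3 BRSK1 sums were below every other library, and the BRSK2 sums lay within the range of the controls.

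SLC6A9, a plasma membrane glycine carrier, was at 17.1, 20.6 and 20.6 CPM in BRSK2 libraries and 15.2, 14.8 and 16.0 CPM in BRSK1 libraries, against 20.5 and 20.3 CPM in hcRED and 23.9 and 24.3 CPM in Mock libraries. The BRSK1 libraries lay below all others, and the BRSK2 libraries overlapped the hcRED libraries. SLC6A9 fell by 30.9% with BRSK1 (-0.53 ± 0.09, adjusted p = 0.00187) and was -0.19 ± 0.09 with BRSK2 (adjusted p = 0.224). The BRSK1 call held in 22 of 23 settings and was lost against hcRED alone (-0.41, adjusted p = 0.0728). The gene CCDC24, which overlaps SLC6A9 on the opposite strand, had 51 to 112 counts per library beside 313 to 492 for SLC6A9.

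SLC7A5 is the light chain of the leucine and large neutral amino acid exchanger, and SLC3A2 is the heavy chain it pairs with. SLC7A5 was at 419.9, 366 and 352 CPM in BRSK2 libraries and 351, 317 and 310.3 CPM in BRSK1 libraries, against 377 and 388 CPM in hcRED and 423 and 425 CPM in Mock libraries. The BRSK1 libraries were below all 4 controls, and the BRSK2 libraries overlapped them. SLC7A5 fell by 19.1% with BRSK1 (-0.31 ± 0.06, adjusted p = 0.00716) and was -0.09 ± 0.06 with BRSK2 (adjusted p = 0.452). The BRSK1 call held in 21 of 23 settings and was lost without BRSK1 replicate 3 (adjusted p = 0.0723) and against hcRED alone (adjusted p = 0.144). The near-identical copy SLC7A5P1 had 57 to 151 counts per library beside 5536 to 8585 for SLC7A5.

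SLC3A2 was at 272, 348 and 337 CPM in BRSK2 libraries and 261, 278 and 288 CPM in BRSK1 libraries, against 254 and 317 CPM in hcRED and 237 and 226 CPM in Mock libraries. BRSK2 replicate 1 lay below hcRED replicate 3, so these groups overlapped. SLC3A2 rose by 24.0% with BRSK2 (0.31 ± 0.08, adjusted p = 0.0314) and was 0.10 ± 0.08 with BRSK1 (adjusted p = 0.527). The BRSK2 call held in 13 of 23 settings. Its value was 0.16 against hcRED alone (adjusted p = 0.444). The call was also lost without BRSK2 replicate 2 (0.153) or 3 (0.156), hcRED replicate 1, or Mock replicate 2 or 3. Library totals alone, only the groups compared, the 4 controls as 1 group and a threshold of 0.01 lost it too. The value of SLC3A2 was positive and that of SLC7A5 negative with either kinase.

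SLC1A5, a sodium-dependent glutamine and neutral amino acid exchanger, was at 307, 259.9 and 248 CPM in BRSK2 libraries and 259.7, 229.7 and 223 CPM in BRSK1 libraries, against 291 and 285 CPM in hcRED and 310.4 and 298 CPM in Mock libraries. All 3 BRSK1 libraries were below the controls, and the BRSK2 libraries overlapped them. SLC1A5 fell by 19.8% with BRSK1 (-0.32 ± 0.07, adjusted p = 0.0089) and was -0.12 ± 0.07 with BRSK2 (adjusted p = 0.299). Its BRSK1 call was lost without BRSK1 replicate 2 (adjusted p = 0.0504) or 3 (0.0901) and against hcRED alone (0.112).

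SLC38A1, a sodium-coupled glutamine carrier, was at 245, 212 and 238 CPM in BRSK2 libraries and 218, 238 and 219 CPM in BRSK1 libraries, against 253 and 262 CPM in hcRED and 256 and 287 CPM in Mock libraries. All 6 kinase libraries were below the 4 controls. SLC38A1 fell by 14.9% with BRSK1 (-0.23 ± 0.06, adjusted p = 0.029) and was -0.19 ± 0.06 with BRSK2 (adjusted p = 0.0616). The BRSK2 value passed in 6 of 23 settings, DESeq2 among them. The BRSK1 call held in 16 of 23 settings. Against hcRED alone the value was -0.19 and the call failed (adjusted p = 0.219). Dropping BRSK1 replicate 1 (adjusted p = 0.0935) or 3 (0.156) removed the call. The same happened when Mock replicate 3 or either hcRED library was dropped, and at a threshold of 0.01. The related carrier SLC38A2 was at -0.14 ± 0.06 with both kinases. The cationic amino acid carrier SLC7A1 and the serine and alanine carrier SLC1A4 were positive with BRSK2 (0.12 ± 0.06 and 0.17 ± 0.09) and negative with BRSK1 (-0.08 ± 0.06 and -0.17 ± 0.09), and none of these values was called.

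**Figure D4:**
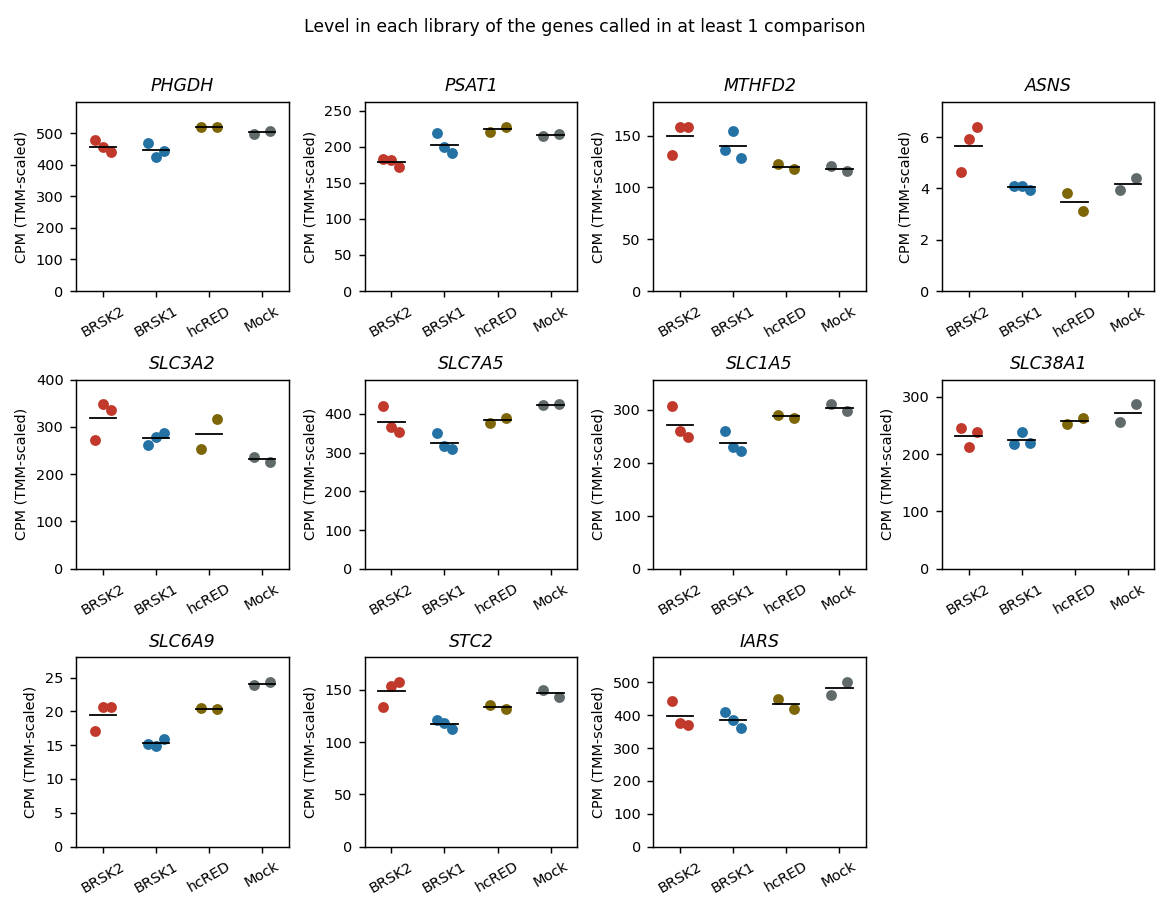
Level in CPM (TMM-scaled, axes from 0) in each of the 10 libraries of the 11 genes called in at least 1 comparison. Points are libraries and lines are group means. PSAT1 is lowest in the BRSK2 libraries, ASNS highest there, and SLC6A9 and STC2 lowest in the BRSK1 libraries.

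CEBPG, a C/EBP partner of ATF4, NUPR1, itself an ATF4 target, and STC2, a secreted glycoprotein induced by the same response, form a small group of regulators and secreted products. STC2 was at 134, 154 and 158 CPM in BRSK2 libraries and 122, 119 and 113 CPM in BRSK1 libraries, against 135 and 132 CPM in hcRED and 150.0 and 143 CPM in Mock libraries. The BRSK1 libraries were below every other library, and the BRSK2 libraries overlapped the controls. STC2 fell by 16.0% with BRSK1 (-0.25 ± 0.06, adjusted p = 0.0171) and was 0.08 ± 0.06 with BRSK2 (adjusted p = 0.442). The BRSK1 call was lost without BRSK1 replicate 2 (adjusted p = 0.0517) or 3 (0.124), without hcRED replicate 1 (0.0716), and against hcRED alone (0.231). CEBPG was 0.17 ± 0.08 with BRSK2 (adjusted p = 0.181) and 0.13 ± 0.08 with BRSK1, and NUPR1 was 0.49 ± 0.32 and 0.35 ± 0.31, none of which passed the test.

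Charged tRNAs are made by the aminoacyl-tRNA synthetases after XPOT has carried the tRNAs out of the nucleus. XPOT was at 245, 232 and 243 CPM in BRSK2 libraries and 243, 241 and 227 CPM in BRSK1 libraries, against 249 and 247 CPM in hcRED and 258 and 260.2 CPM in Mock libraries. Every kinase library was below every control by a narrow margin, and the values, -0.08 ± 0.05 with BRSK2 and -0.10 ± 0.05 with BRSK1, did not pass the test (adjusted p = 0.414 and 0.301).

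Of the 12 cytosolic synthetases, edgeR called 0 with BRSK2, where 7.82% of all tested genes were called. With BRSK2, 2 had an unadjusted p under 0.05, both lower, and DESeq2 called 1 and limma-voom 0. With BRSK1 edgeR called 1 (8.33%), which was lower, where 6.43% of all tested genes were called. DESeq2 called 3 with BRSK1 and limma-voom 2. The median log2 fold change of the group was -0.06 with BRSK2, with 9 of 12 values negative, and -0.11 with BRSK1, with 11 of 12 negative. Under library totals alone all 12 values were negative with both kinases, and the medians were -0.16 with BRSK2 and -0.15 with BRSK1. That setting called 3 of the 12 genes lower with BRSK2 and 4 with BRSK1, beside 3001 and 1196 of all tested genes. The called gene, IARS, loads isoleucine onto its tRNA. It was at 442, 377 and 369 CPM in BRSK2 libraries and 409.5, 387 and 360.2 CPM in BRSK1 libraries, against 449 and 419.8 CPM in hcRED and 462 and 501 CPM in Mock libraries. The BRSK1 libraries were below all 4 controls, and BRSK2 replicate 1 lay among the hcRED libraries.

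IARS fell by 15.7% with BRSK1 (-0.25 ± 0.07, adjusted p = 0.03) and was -0.21 ± 0.07 with BRSK2 (adjusted p = 0.0588). The BRSK2 value passed in 7 of 23 settings, DESeq2 among them. The BRSK1 call held in 17 of 23 settings. Against hcRED alone the value was -0.17 and the call failed (adjusted p = 0.324). Dropping BRSK1 replicate 2 (adjusted p = 0.0876) or 3 (0.197) removed the call. The same happened when Mock replicate 3 or hcRED replicate 1 was dropped, and at a threshold of 0.01. SARS, the synthetase with the highest level per length, was at 261, 288 and 291 CPM in BRSK2 libraries and 262, 264 and 271 CPM in BRSK1 libraries, against 275 and 281 CPM in hcRED and 275 and 246 CPM in Mock libraries. These overlapped, at 0.06 ± 0.06 with BRSK2 and -0.02 ± 0.06 with BRSK1. The synthetases for glycine (GARS), tryptophan (WARS) and tyrosine (YARS) had BRSK1 libraries below all controls without passing the test, at -0.18 ± 0.06, -0.18 ± 0.06 and -0.17 ± 0.05 (adjusted p = 0.0813, 0.0679 and 0.0657). The same held for the threonine synthetase TARS, at -0.12 ± 0.06 (adjusted p = 0.215). TARS was -0.08 ± 0.06 with BRSK2 (adjusted p = 0.45). S100PBP, on the opposite strand to YARS, had 701 to 1099 counts per library beside 6640 to 9139 for YARS. The remaining synthetases, AARS, CARS, EPRS, LARS, MARS and NARS, ranged with BRSK2 between -0.15 for NARS and 0.08 for CARS and with BRSK1 between -0.14 for MARS and 0.03 for CARS.

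BRSK2 set directly against BRSK1 called 1 of the 39 genes (2.56%), STC2, against 0.348% of all tested genes (0.23% higher, 0.118% lower). STC2 was 1.26-fold higher with BRSK2 (0.34 ± 0.07, adjusted p = 0.0282), and its 3 BRSK2 libraries were all above its 3 BRSK1 libraries. The call held in 12 of 20 settings, and was lost without BRSK1 replicate 1 (adjusted p = 0.0662), 2 (0.0894) or 3 (0.138), without BRSK2 replicate 2 (0.11) or 3 (0.137), and without hcRED replicate 3 (0.0504). Of the 39 values 33 were positive, with a median of 0.06 against 0.00 for all tested genes, but under library totals alone 19 were positive and the median was -0.01. The BRSK2 libraries were above all BRSK1 libraries for 10 of the 39 genes and below them for 1, PSAT1, where the shares over all tested genes were 8.65% and 9.02%.

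The carriers had the highest median of any role in this comparison. All 8 were positive, with a median of 0.20, although under library totals alone 6 of 8 were, with a median of 0.14, and 7 of 8 with the 2 kinase genes kept out of the scaling. None of the 8 was called by edgeR, DESeq2 or limma-voom (0 by each), and 6 of 8 had an unadjusted p under 0.05 in each tool. SLC1A4 was at 45.9, 40.6 and 38.0 CPM in BRSK2 libraries and 31.5, 33.0 and 33.4 CPM in BRSK1 libraries, a difference of 0.35 ± 0.09 (adjusted p = 0.108). SLC6A9 differed by 0.34 ± 0.10 (adjusted p = 0.15) and SLC7A5 by 0.22 ± 0.07 (adjusted p = 0.17). For SLC1A4, SLC6A9, SLC7A5 and SLC7A1 the BRSK2 libraries were all above the BRSK1 libraries. ASNS differed by 0.48 ± 0.18 (adjusted p = 0.267) and PSAT1 by -0.18 ± 0.06 (adjusted p = 0.212). The 5 serine and glycine genes, the 3 folate enzymes, the 7 other synthesis genes and the 12 synthetases had 0 calls each by edgeR, DESeq2 and limma-voom. In edgeR 1, 0, 2 and 0 of them had an unadjusted p under 0.05.

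**Figure D5:**
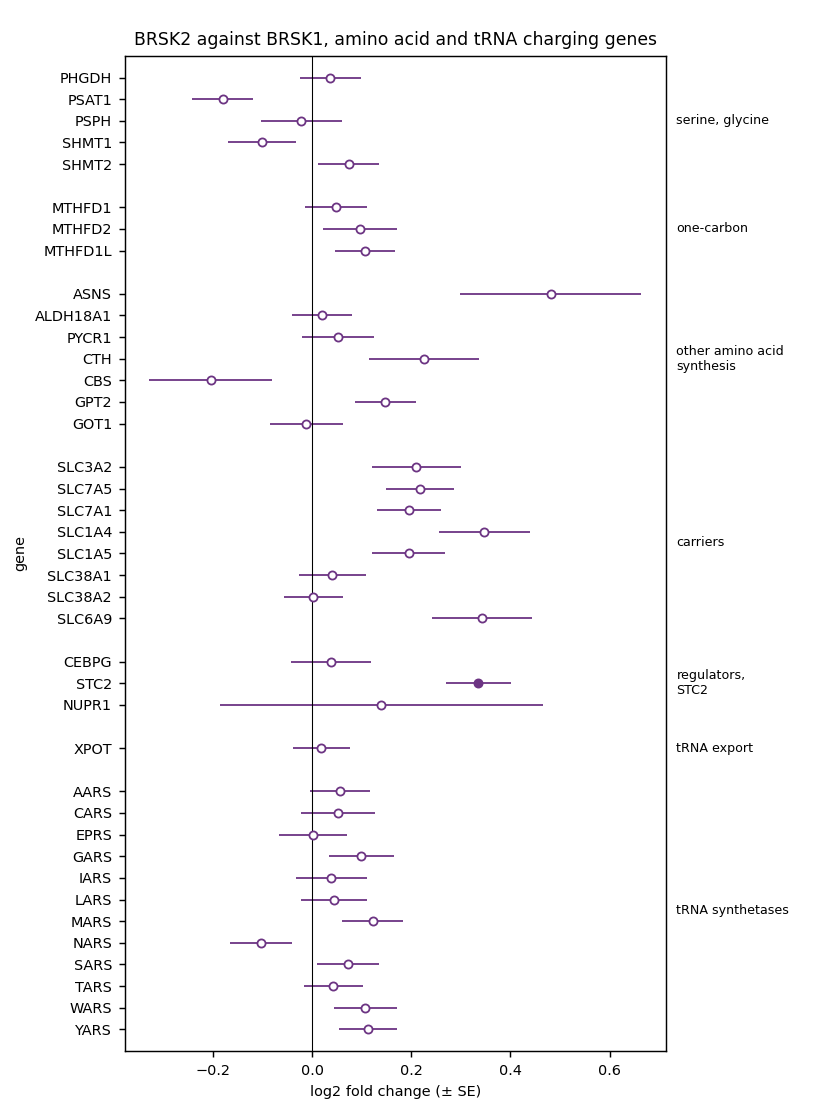
Log2 fold change of each of the 39 genes in BRSK2 against BRSK1 libraries, with bars of ± 1 standard error, grouped by role. The filled point, STC2 at 0.34, is the 1 called gene. All 8 carriers lie above 0 under this scaling, and under library totals alone 6 of 8 do.

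Between the control groups, hcRED against Mock called 0 of the 39 genes in edgeR (3 at an unadjusted p under 0.05; DESeq2 0 and limma-voom 0), against 0.0295% of all tested genes (0.0059% higher, 0.0236% lower). The 2 hcRED libraries were above both Mock libraries for 8 of the 39 genes and below them for 19, where 40.3% of all tested genes were apart (20% higher and 20.3% lower). The smallest p belonged to MTHFD1 (-0.22 ± 0.08, adjusted p = 0.352) and SLC3A2 (0.30 ± 0.11, adjusted p = 0.413). The SLC3A2 difference between the controls was about as large as its difference with BRSK2 (0.31). With hcRED alone as the control, 2 genes were called with BRSK2 and 0 with BRSK1, and with Mock alone 5 and 7. PHGDH is not among the 7 called with BRSK1 against Mock alone. Over all tested genes, hcRED alone gave 606 calls with BRSK2 and 133 with BRSK1, and Mock alone gave 931 with BRSK2 and 1133 with BRSK1.

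Upstream, the eIF2alpha kinases, the eIF2 and eIF2B subunits, their regulators and ATF4 showed no calls. In edgeR 0 of 15 genes were called with BRSK2 (2 at an unadjusted p under 0.05; DESeq2 0 and limma-voom 0) and 0 of 15 with BRSK1 (3 at an unadjusted p under 0.05; DESeq2 1 and limma-voom 0). ATF4 mRNA was at 579.8, 747 and 731 CPM in BRSK2 libraries and 602, 638 and 638 CPM in BRSK1 libraries, against 635 and 650.2 CPM in hcRED and 679 and 550.3 CPM in Mock libraries. These ranges overlapped, with log2 fold changes of 0.13 ± 0.08 with BRSK2 (adjusted p = 0.38), beside -0.01 ± 0.08 with BRSK1 (adjusted p = 0.981). ATF4 protein and its translation were not measured.

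Of 20 tested ATF4 targets outside the 39 genes, most of them with roles other than amino acid supply, 6 rose and 1 fell with BRSK2 (35%, against 7.82% of all tested genes), with a median of 0.22. Under library totals alone 5 rose and 1 fell with BRSK2, with a median of 0.12. With BRSK1, 1 rose and 2 fell (15%, against 6.43% of all tested genes), with a median of 0.02, which was -0.02 under library totals alone. CHAC1, which degrades glutathione, was at 11.3, 13.7 and 14.6 CPM in BRSK2 libraries and 5.91, 8.54 and 9.83 CPM in BRSK1 libraries, against 8.52 and 7.88 CPM in hcRED and 5.70 and 5.69 CPM in Mock libraries. Its BRSK2 libraries were above all others. BRSK2 against BRSK1 called 2 of these 20 genes, CHAC1 (0.70 ± 0.16, adjusted p = 0.0473) and SESN2, a leucine sensor that restrains mTORC1 (0.51 ± 0.08, adjusted p = 0.0173). SLC7A11, the cystine carrier that both ATF4 and NRF2 induce, fell with BRSK2 (-0.55 ± 0.09, adjusted p = 0.000678), and likewise with BRSK1 (-0.57 ± 0.09, adjusted p = 0.000796). GDF15, a secreted stress cytokine at 0.396 to 2.65 CPM, rose with BRSK2 (1.11 ± 0.33, adjusted p = 0.0406), and likewise with BRSK1 (1.73 ± 0.31, adjusted p = 0.00235).

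Genes of these processes outside the 39 are set beside 7.82% of all tested genes called with BRSK2 and 6.43% with BRSK1. With BRSK2 the called share was 16.7% of other carriers, 11.8% of mitochondrial synthetases and 6.25% of other one-carbon and folate genes. With BRSK1 it was 16.7% of other carriers, 9.09% of other cytosolic synthetase and scaffold genes and 5.88% of mitochondrial synthetases. It was 12.5% of other synthesis and breakdown genes. Each of these shares rests on few calls. Of 18 other amino acid carriers, 1 rose and 2 fell with BRSK2, and 3 fell with BRSK1. The glutamate carrier SLC1A3 fell with BRSK2 (-0.47 ± 0.08, adjusted p = 0.000873), and likewise with BRSK1 (-0.50 ± 0.08, adjusted p = 0.000909). Of 11 other cytosolic synthetase and scaffold genes, 0 were called with BRSK2 (1 at an unadjusted p under 0.05, with DESeq2 0 and limma-voom 0). With BRSK1, 1 fell, FARSA, a phenylalanyl-tRNA synthetase subunit (-0.25 ± 0.07, adjusted p = 0.0472). FARSA was at 219, 208 and 196 CPM in BRSK1 libraries. It was at 254 and 206 CPM in hcRED and 291 and 238 CPM in Mock libraries, so the groups overlapped. Of 17 mitochondrial synthetases, 2 rose with BRSK2, VARS2 (0.32 ± 0.07, adjusted p = 0.00673) and WARS2 (0.26 ± 0.08, adjusted p = 0.0475), and VARS2 rose with BRSK1 (0.31 ± 0.07, adjusted p = 0.0115). Of 16 other one-carbon and folate genes, MAT2A, which makes S-adenosylmethionine, fell with BRSK2 (-0.24 ± 0.06, adjusted p = 0.0162) and 0 were called with BRSK1 (2 at an unadjusted p under 0.05; DESeq2 0 and limma-voom 0). Of 16 other genes of amino acid synthesis and breakdown, 0 were called with BRSK2 (5 at an unadjusted p under 0.05; DESeq2 1 higher and 1 lower, and limma-voom 0). With BRSK1, 1 of the same genes rose and 1 fell, and the one that fell was BCAT1, the cytosolic branched-chain aminotransferase (-0.32 ± 0.09, adjusted p = 0.0451).

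The authors' deposited table for BRSK2 lists 3 of the 39 genes among 723, PSAT1 (log2 fold change -0.29), MTHFD2 (0.33) and CBS (-0.34, adjusted p = 0.0247). The authors' deposited table for BRSK1 lists 8 of the 39 among 879 genes, the 7 called here and MTHFD2 (0.23, adjusted p = 0.0456). ASNS and SLC3A2 are not among the genes that the authors' deposited table lists for BRSK2.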

How the data were processed

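RNA from HEK293T cells was sequenced, and libraries were grouped by the genotype in the labels. Per the submitters' processing notes, STAR, edgeR, limma and hg38 were used. How reads were counted, whether by strand, and against which annotation release is not given in the sources used here. Raw read counts per gene were deposited by the authors for each kinase with the 4 control libraries, and the control counts were the same in both tables (0 genes differed). The tables were joined into 10 libraries, with 0 unused count columns. The authors' deposited tables of differential expression hold a log2 fold change, a p-value and an adjusted p-value, and list only genes that passed their threshold. Log2 CPM values, scores and gene lengths that the authors deposited were not used.

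One edgeR quasi-likelihood fit (edgeR 4.0.16 in R 4.3.3, robust, with TMM scaling and the filterByExpr defaults of at least 10 counts, 15 in total) held 4 group means. The kinases were contrasted with the mean of hcRED and Mock, and adjustment ran over all 16936 tested genes with a threshold of 0.05. Standard errors were taken as |log2 fold change| over the square root of F. Levels are TMM-scaled CPM. TPM used the longest GENCODE transcript of each gene. The fit was tested on simulated data.

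The 39 genes, their roles and the other lists (121 symbols, of which KYAT1 was not matched) were chosen with earlier results of these data known. Values per library were given for every called gene and, in each role, for the gene with the highest level and the gene with the smallest p. SLC1A4, ATF4, CHAC1 and FARSA were given per library after their values were seen. Other lists name up to 4 called genes, by smallest p, and some results are not reported here.

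Alternatives were other scalings (RLE, library totals, BRSK1 and BRSK2 left out), no filter or 1 CPM in 3 libraries, DESeq2 1.42.0, limma-voom (limma 3.58.1), a replicate block, each library left out, only the groups compared, other uses of the controls, and a threshold of 0.01. Where this left 1 library in a group, the spread of the other groups was assumed for it. Plots were made in matplotlib 3.10.9.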

Additional observations from a re-analysis of the deposited data

How the results depend on the processing

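No gene called in the comparisons above changed sign in any alternative setting (23 for each kinase against controls, 20 for each other comparison). With BRSK2 against controls, 4 genes were called; the count was 15 under library totals alone, 7 with no filter on low counts, 9 with DESeq2, 2 against hcRED alone, 2 at a threshold of 0.01, and 1 to 9 with 1 library left out (1 without BRSK2 replicate 3, 2 without BRSK2 replicate 2, Mock replicate 3 or hcRED replicate 1, 9 without BRSK2 replicate 1). With BRSK1 against controls, 7 were called; the count was 11 under library totals alone, 0 against hcRED alone, 3 at a threshold of 0.01, and 1 to 12 with 1 library left out (1 without BRSK1 replicate 3, 3 without BRSK1 replicate 2 or hcRED replicate 1, 4 without Mock replicate 3, 12 without BRSK2 replicate 1). BRSK2 against BRSK1 called 1 gene, and 2 with no filter, 0 with only the groups compared, 0 at a threshold of 0.01, and 0 to 1 with 1 library left out. The hcRED against Mock comparison called 0 genes, 1 with no filter, and 0 with any 1 library left out. With the replicate block, the counts were 11 with BRSK2, 13 with BRSK1, 3 for BRSK2 against BRSK1 and 2 for hcRED against Mock. The labels do not say what the replicate numbers mark, and they were not taken to pair the libraries. Between groups, the deviations of same-numbered libraries correlated at -0.051 to 0.161, and those of differently numbered libraries at -0.14 to 0.1. These values do not settle whether the numbers mark a pairing. Over all tested genes the block called 2153 with BRSK2, 1999 with BRSK1, 267 for BRSK2 against BRSK1 and 433 for hcRED against Mock. Without it, 1325, 1089, 59 and 5 were called. The cause of these differences was not tested. Leaving out a kinase library also moved the calls over all tested genes. For BRSK2 against controls these were 346 without BRSK2 replicate 3, 641 without BRSK2 replicate 2 and 2211 without BRSK2 replicate 1. For BRSK1 against controls these were 204 without BRSK1 replicate 3, 415 without BRSK1 replicate 2 and 1751 without BRSK2 replicate 1. In these settings the counts for the ATF4-linked genes moved the same way, so the shifts need not be particular to those genes. Of the genes not called, 14 of 35 with BRSK2 and 7 of 32 with BRSK1 passed in at least 1 setting, so a missing call does not show that a gene did not change. Groups of 2 and 3 libraries, and low counts for ASNS and NUPR1, limit what could be detected.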
